A study of Homo sapiens with 4 samples.

Results

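The comparison described here set the 2 RNA-seq libraries with the letter Q in the title against the 2 with the letter H, which are all 4 libraries of the series. Each letter held 1 library of mock-treated Huh7 cells and 1 of Huh7 cells kept in 300 µM hydrogen peroxide (H2O2), all taken on day 4 with fresh medium given each day. The titles alone set the groups, the meaning of the letters is not given in the sources used here, and treatment entered the test as a block. The sources call the libraries duplicates and do not say whether they came from separate cultures, so the p-values below measure only the spread between these 4 libraries. With 1 library for each letter and treatment, any difference of the Q library from the H library that is not shared by both treatments went into the error.

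Huh7 is an established line from a human hepatocellular carcinoma that keeps many functions of the liver's parenchymal cell, the hepatocyte. Hepatocytes make most plasma proteins, among them albumin, the clotting factors and the acute phase proteins that rise in inflammation, and this program is driven by transcription factors such as the HNF, FOXA and C/EBP proteins. Liver cancer cells can also express matrix proteins, proteases, adhesion receptors and chemokines, which are kept low in quiescent hepatocytes and are known to be driven by factors such as NF-kB, AP-1 and YAP/TEAD.

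The Q libraries held more RNA of several matrix proteins, matrix proteases, integrins, YAP/TEAD targets, chemokines and interferon-stimulated genes, and less RNA of several plasma proteins, fatty acid enzymes, liver transcription factors and ribosomal proteins. Levels are counts scaled to library size (CPM) with TMM factors and carry no correction for length, and differences are log2 of Q over H from edgeR with a standard error (SE). A gene is said to have risen or fallen in Q where the adjusted p of edgeR's quasi-likelihood test was under 0.05. Of 27702 rows tested, 1290 (4.66%) passed, 575 higher in Q (2.08%) and 715 lower (2.58%). Among the 16491 mRNA genes 478 rose (2.9%) and 563 fell (3.41%), together 6.31%, and these shares are the background for every gene list below. The genes that rose moved further, with a median of 2.64-fold against 1.96-fold for those that fell, and 116 rose but 13 fell by more than 4-fold. Their level was also lower, with a median of 10.3 CPM against 51.3 CPM for the genes that fell and 18.6 CPM over all mRNA genes. The part of level in the size of the folds was not tested.

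The size of these counts depended on the block and on the scaling. Without the treatment block 3 genes were higher and 0 lower. Upper-quartile scaling turned the split to 413 higher and 270 lower. With 1 library left out, the other 3 leave no residual degree of freedom for a block, so those fits had no treatment term and changed both choices at once. Without the mock Q library 57 genes were higher and 4 lower, and without the H2O2 Q library 159 and 246. Without the mock H library the counts were 1214 and 978, and without the H2O2 H library 933 and 1102. Of the genes that passed, 570 of the 575 higher and 715 of the 715 lower kept their sign without the mock Q library. They were picked with these same libraries, which itself favours the same sign, so the count does not test direction. The part of a single library in these counts cannot be told apart from that of the block.

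Both Q libraries lay above both H libraries for 3920 mRNA genes (23.8%) and below both for 4106 (24.9%). In the same fit H2O2 against mock gave 42 calls (0.152% of rows), 6 higher (0.0217%) and 36 lower (0.13%), and 14 genes passed for both. Letter took a median of 43.3% of an mRNA gene's sum of squares in log2 CPM, treatment 30.9% and the remainder 7.94%. All 1041 mRNA genes that passed had the same sign in mock and in H2O2, against 72.5% of all mRNA genes tested, which the test itself favours. Of the genes that fell, 410 of 563 differed more between the mock libraries than between the H2O2 libraries, with medians of −1.06 and −0.88. Of those that rose, 289 of 478 did so, with medians of 1.36 and 1.29.

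**Figure D1:**
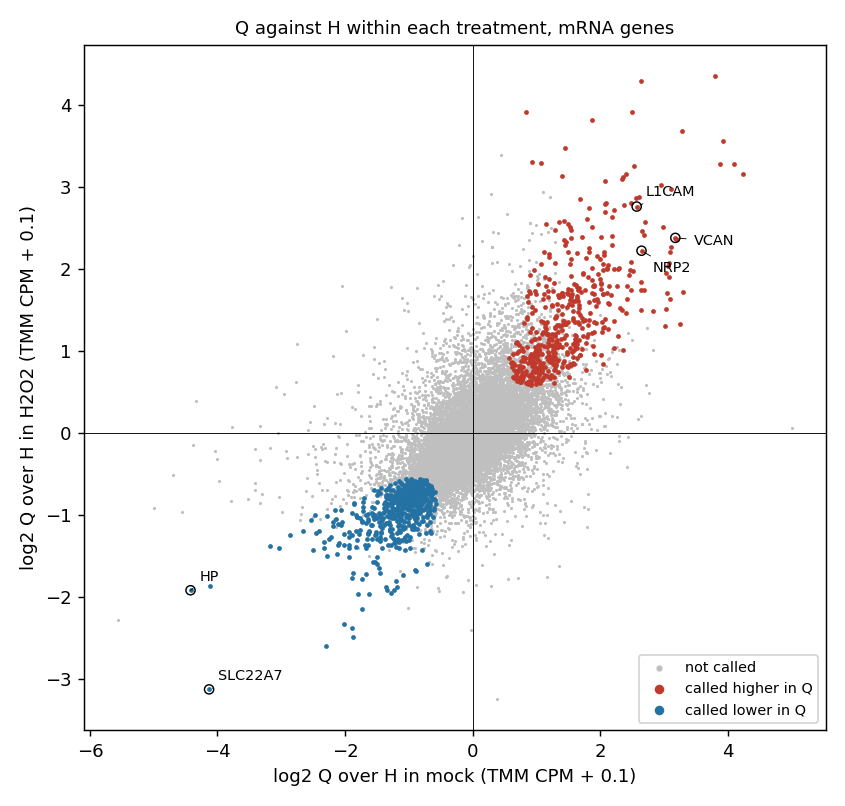
Each point is an mRNA gene, with log2 of Q over H between the mock libraries on the x axis and between the H2O2 libraries on the y axis, from TMM CPM plus 0.1. Red and blue points passed the test as higher and lower in Q and all lie in the upper right or lower left, and rings mark the 5 genes given with the comparison, of which HP and SLC22A7 lie farthest out on the lower left.

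The libraries were similar in size, between 43169100 and 50590615 read pairs with 87.4% to 91.7% of mates mapped, and the mock Q library had the most pairs and the lowest mapped share. The 10 genes with most reads took 7.10% and 6.5% of reads in the mock and H2O2 H libraries and 3.94% and 4.76% in the Q libraries. Markers of the labelled cell type were present, with all 13 markers of hepatocyte-like liver cancer cells above the filter in every library, from TTR at 14.8 CPM to ALB at 9136 CPM. None of the 13 rose and 4 fell in Q. Markers of endothelial cells, fibroblasts, and blood and immune cells gave 0 calls in 7, 11 and 7 measured genes. The pan-leukocyte gene PTPRC had 5 to 33 reads and the haemoglobin gene HBB 0 to 2 reads per library, and the part of other cells in the results was not tested further. In bulk RNA, fewer cells of a type and less RNA per cell cannot be told apart.

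The 5 genes given with the comparison were 3 of the cell surface and matrix and 2 of hepatocytes. VCAN on chromosome 5 encodes versican, a large matrix proteoglycan, and measured 9.05 CPM in mock H, 12.2 in H2O2 H, 82.8 in mock Q and 64.1 in H2O2 Q. Its difference was 2.79 (SE 0.22, adjusted p = 0.0131), or 6.91-fold. L1CAM on chromosome X, a neural adhesion molecule, measured 4.47 and 2.33 CPM in mock and H2O2 H, and 27.1 and 16.4 CPM in mock and H2O2 Q (2.70, SE 0.19, adjusted p = 0.0116). NRP2 on chromosome 2, a receptor for semaphorins and VEGF, measured 4.83 and 3.02 CPM in H and 30.8 and 14.5 CPM in Q in the same order (2.47, SE 0.20, adjusted p = 0.0131). For all 3 genes the lowest Q library was above the highest H library.

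HP on chromosome 16 encodes haptoglobin, which binds free haemoglobin in plasma. It measured 80.3 and 104 CPM in mock and H2O2 H, and 3.65 and 27.4 CPM in mock and H2O2 Q (−3.16, SE 0.59, adjusted p = 0.0412). The 2 Q libraries differed widely from each other, and the drop was −4.42 in mock and −1.92 in H2O2. The neighbouring, near-identical gene HPR moved alongside (−3.02, SE 0.56, adjusted p = 0.0404). Both calls were lost with upper-quartile scaling (edgeR, adjusted p = 0.0611 for HP and 0.0603 for HPR) and with limma on FPKM (adjusted p = 0.0631 and 0.0576), with differences of −3.10 and −3.07 for HP. How the counting shared reads between HP and HPR is not given in the sources used here. SLC22A7 on chromosome 6, the hepatic organic anion transporter OAT2, measured 5.85 and 19.2 CPM in H and 0.239 and 2.11 CPM in Q (−3.78, SE 0.37, adjusted p = 0.0211). It had the largest drop of the mRNA genes with a mean of at least 1 CPM, and both Q libraries were below both H libraries.

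Among mRNA genes with a mean of at least 1 CPM, those that rose most were mostly low in the H libraries. The first was MMP7, matrilysin, a matrix metalloprotease, at 0.269 and 0.206 CPM in mock and H2O2 H and 5.01 and 6.17 CPM in mock and H2O2 Q (4.55, SE 0.30, adjusted p = 0.0116). PRSS23, a secreted serine protease, measured 8.45 and 3.25 CPM in H and 83.1 and 43.1 CPM in Q (3.51, SE 0.18, adjusted p = 0.0116). For MMP7 and PRSS23 the H and Q values stood far apart in both treatments. Others were S100A3, SERPINB7, KLRC2, PLCXD3, CCL4, CSF3, PTHLH, TNFRSF10C, ANKRD1, ARL14, IFI44 and NAV3, with differences from 4.16 for S100A3 to 2.93 for NAV3. KLRC2 lies in a block of near-identical natural killer receptor genes, and CCL4 has near copies, so their reads may be shared with those.

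**Figure D2:**
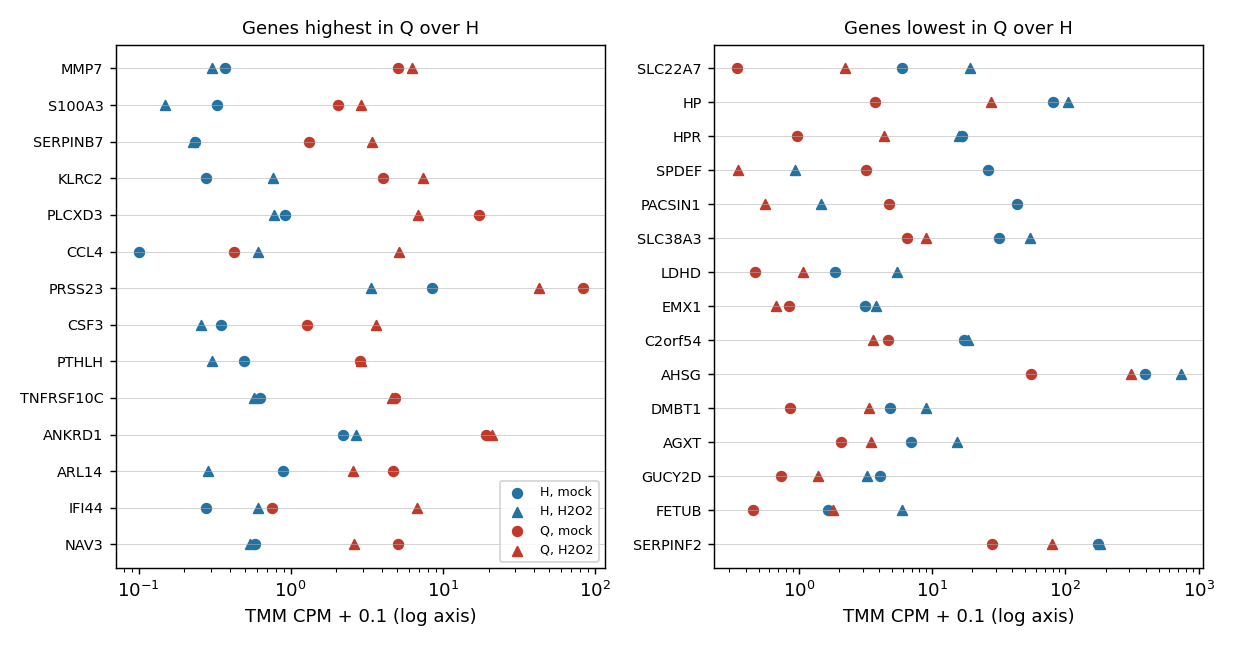
TMM CPM plus 0.1 on a log axis for 14 of the mRNA genes with the largest rise (left) and the 15 with the largest drop (right) in Q among those with a mean of at least 1 CPM, with blue for H, red for Q, circles for mock and triangles for H2O2. The red and blue symbols do not overlap for 13 of the genes on the left (mock Q lies below H2O2 H for CCL4) and for 12 on the right, where SPDEF, PACSIN1 and FETUB overlap.

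Matrix protein genes rose more often than they fell, with 7 of 41 measured higher, 2 lower and 32 not past the test (median difference 0.50, against 0.0048 over all mRNA genes). The list median was 0.23 between the mock libraries and 0.27 between the H2O2 libraries, where 0.1 CPM was added to each level. THBS1, the adhesive glycoprotein thrombospondin 1, measured 42.8 and 57.3 CPM in H and 352 and 223 CPM in Q (2.50, SE 0.27, adjusted p = 0.0218). COL7A1, the collagen of anchoring fibrils, measured 47.4 and 26.8 CPM in H and 109 and 59.2 CPM in Q (1.17, SE 0.13, adjusted p = 0.0228). Both Q libraries were above both H libraries for THBS1 and COL7A1.

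Proteases and protease inhibitors of the matrix gave 7 rises and 1 fall in 27 (median 0.39). Besides MMP7 these included the inhibitors TFPI2 (2.74, SE 0.24, adjusted p = 0.0143), TIMP1 (2.05, SE 0.26, adjusted p = 0.0246) and SERPINE2 (1.86, SE 0.17, adjusted p = 0.0203). SERPINE2, which inhibits thrombin and plasminogen activators, measured 34.5 and 34.7 CPM in mock and H2O2 H and 150 and 105 CPM in mock and H2O2 Q. Integrins and other adhesion receptors gave 6 rises and 0 falls in 29 (median 0.22), and 3 rises with upper-quartile scaling. ITGAV, the alpha V subunit that binds RGD ligands and activates latent TGF-beta, measured 122 and 133 CPM in H and 423 and 301 CPM in Q (1.48, SE 0.19, adjusted p = 0.0242). Its partners ITGB6 (2.84, SE 0.37, adjusted p = 0.0246) and ITGB8 (1.41, SE 0.20, adjusted p = 0.0278) rose too.

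YAP/TEAD target genes, which respond to cell density and tension, gave 6 rises and 0 falls in 22, and 20 of the 22 differences were positive (median 0.55). ANKRD1, a cardiac-type ankyrin repeat protein often used as a readout of YAP, measured 2.11 and 2.59 CPM in mock and H2O2 H and 19.1 and 21 CPM in mock and H2O2 Q (3.10, SE 0.19, adjusted p = 0.0116). MYOF, a membrane repair protein, measured 26 and 12 CPM in H and 118 and 74.7 CPM in Q (2.41, SE 0.17, adjusted p = 0.0116). Both letters were well apart for ANKRD1 and MYOF. NUAK2, a kinase of the AMPK family, rose by 1.64 (SE 0.16, adjusted p = 0.0211). TGF-beta and BMP targets gave 5 rises and 0 falls in 27 (median 0.50, or 0.17 in mock and 0.35 in H2O2). Among the rises the growth factor TGFB2 measured 6.16 and 4.46 CPM in H and 22.2 and 21.6 CPM in Q (2.06, SE 0.19, adjusted p = 0.0204). LTBP1, which tethers latent TGF-beta to matrix, rose by 1.5 (SE 0.18, adjusted p = 0.0239) and the pseudoreceptor BAMBI by 0.91 (SE 0.13, adjusted p = 0.0289).

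S100 proteins and annexins, small calcium-binding and membrane-binding proteins, gave 4 rises and 0 falls in 24 (median 0.14). S100A6 measured 50.5 and 24.6 CPM in mock and H2O2 H and 204 and 130 CPM in mock and H2O2 Q (2.21, SE 0.16, adjusted p = 0.0116). ANXA1 measured 10.8 and 6.88 CPM in H and 60.8 and 29.6 CPM in Q (2.30, SE 0.17, adjusted p = 0.0116), and ANXA3 rose by 1.46 (SE 0.14, adjusted p = 0.0211). Neural adhesion and axon guidance genes moved both ways, with 6 rises and 4 falls in 48 (median −0.01). Beside L1CAM and NRP2, the adhesion molecule NRCAM rose by 1.48 (SE 0.14, adjusted p = 0.0211) and the guidance cue NTN4 by 2.18 (SE 0.24, adjusted p = 0.0218). Of 12 neural and neuroendocrine markers MAP2 alone rose, from 5.28 and 8.64 CPM in H to 45.4 and 36.7 CPM in Q (2.59, SE 0.27, adjusted p = 0.0216).

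NF-kB targets, chemokines and cytokines held the highest share of rises of the 47 lists, with 15 of 26 higher, 0 lower and 11 not past the test, and 23 of 26 differences positive (median 1.22). The same 15 and 0 were counted with upper-quartile scaling, and without the mock Q library and the block 5 members were higher and 0 lower. BIRC3, an inhibitor of apoptosis, measured 28.1 and 35.3 CPM in mock and H2O2 H and 82.7 and 114 CPM in mock and H2O2 Q (1.63, SE 0.14, adjusted p = 0.0131). CX3CL1, the membrane-bound chemokine fractalkine, measured 24.4 and 18.6 CPM in H and 76.3 and 64.2 CPM in Q (1.72, SE 0.14, adjusted p = 0.0131). All Q values of BIRC3 and CX3CL1 exceeded all H values.

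The longest run of adjacent genes that moved the same way was the CXC chemokine cluster of chromosome 4, where 6 neighbours rose, CXCL8 (listed as IL8), CXCL6, CXCL1, CXCL5, CXCL3 and CXCL2. They encode ligands of the neutrophil receptors CXCR1 and CXCR2. IL8, CXCL1, CXCL5 and CXCL2 are named because their run was seen in the values. To show what the 6 promoters share, the 150 bases before each start site are printed 5′ to 3′ on the gene's strand, from RefSeq on GRCh38.p14. Capitals mark the NF-kB motif (GGG, any 2 bases, TTTCC), searched on both strands, or in CXCL8 the AP-1 motif TGANTCA, also searched on both strands.
CXCL8 (IL8), chr4:73740419-73740568, plus strand: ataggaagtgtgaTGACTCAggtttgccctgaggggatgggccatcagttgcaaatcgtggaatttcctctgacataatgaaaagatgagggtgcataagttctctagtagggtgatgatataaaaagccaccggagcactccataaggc
CXCL6, chr4:73836528-73836677, plus strand: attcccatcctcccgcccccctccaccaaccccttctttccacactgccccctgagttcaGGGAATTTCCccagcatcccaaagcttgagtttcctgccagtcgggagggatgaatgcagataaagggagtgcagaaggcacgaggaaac
CXCL1, chr4:73869243-73869392, plus strand: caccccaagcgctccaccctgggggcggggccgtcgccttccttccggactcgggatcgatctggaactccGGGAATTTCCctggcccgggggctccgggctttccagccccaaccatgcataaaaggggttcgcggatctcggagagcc
CXCL5, chr4:73998678-73998827, minus strand: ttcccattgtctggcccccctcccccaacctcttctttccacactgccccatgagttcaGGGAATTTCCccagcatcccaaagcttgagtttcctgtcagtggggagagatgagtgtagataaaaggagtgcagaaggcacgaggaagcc
CXCL3, chr4:74038690-74038839, minus strand: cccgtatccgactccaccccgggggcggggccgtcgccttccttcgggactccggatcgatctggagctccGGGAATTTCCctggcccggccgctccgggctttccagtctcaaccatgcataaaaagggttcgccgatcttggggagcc
CXCL2, chr4:74099196-74099345, minus strand: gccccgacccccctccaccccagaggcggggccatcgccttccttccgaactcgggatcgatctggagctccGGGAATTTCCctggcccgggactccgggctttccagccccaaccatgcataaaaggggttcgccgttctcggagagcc

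The NF-kB motif, as GGGAATTTCC in each case, begins 90 bases before the start in CXCL6, 79 in CXCL1, 91 in CXCL5, 79 in CXCL3 and 78 in CXCL2. The CXCL8 window holds no full match to these letters, but it has tggaatttcc, which differs from the searched motif only in its first base. Its AP-1 motif begins 137 bases before the start. Several windows are near copies, with 88.1% identity of CXCL1 and CXCL3 and 89.4% of CXCL5 and CXCL6 in a global alignment, against 46.2% of CXCL8 and CXCL1. Of all 27305 RefSeq promoter windows of this length 1.11% hold the NF-kB motif, and 4.16% (16) of the 385 windows found for the 478 genes that rose, 5 of the 16 being the chemokine windows printed here. For AP-1 the shares were 4.14% and 5.45%, for the TEAD motif GGAATG 7.09% and 7.01%, and for the interferon response motif (GAAA, any 2 bases, GAAA) 1.79% and 2.60%. The TATA box TATAAA was in 7.05% of all windows and 11.7% (45) of those of the genes that rose, and the C/EBP motif (TTGC, any 2 bases, AA) in 5.08% and 4.68%. Motifs of HNF1 (GTTAAT, any base, ATT) and HNF4 (CAAAG next to TCCA) were rare, at 0.198% and 0.519%, and 0.190% and 0.260%. A match in letters describes the window and is not a measured binding site.

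CXCL6 measured 8.51 and 9.46 CPM in mock and H2O2 H and 67.9 and 54.7 CPM in mock and H2O2 Q (2.76, SE 0.18, adjusted p = 0.0116). IL8 measured 12 and 30.9 CPM in H and 61.5 and 87.8 CPM in Q (1.93, SE 0.22, adjusted p = 0.0228). CXCL3 measured 9.35 and 10.9 CPM in H and 37.6 and 40.4 CPM in Q (1.95, SE 0.15, adjusted p = 0.0131). The Q libraries were above the H libraries for all 3. CXCL5 measured 215 and 228 CPM in H and 551 and 476 CPM in Q (1.21, SE 0.15, adjusted p = 0.0239), CXCL1 rose by 1.28 (SE 0.15, adjusted p = 0.0239) and CXCL2 by 1.11 (SE 0.17, adjusted p = 0.0312). CXCL1, CXCL2 and CXCL3, and CXCL5 and CXCL6, are close paralogs whose reads may be shared.

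Interferon-stimulated and antigen presentation genes gave 6 rises and 0 falls in 32, with 28 positive (median 0.56). OAS1, OAS2 and OAS3, adjacent genes of chromosome 12, encode enzymes that sense double-stranded RNA and activate RNase L. OAS3 measured 20 and 15.6 CPM in mock and H2O2 H and 47.9 and 33 CPM in mock and H2O2 Q (1.17, SE 0.15, adjusted p = 0.0246), OAS1 rose by 1.5 (SE 0.20, adjusted p = 0.025) and OAS2 by 3.04 (SE 0.37, adjusted p = 0.0239). OAS2 was low, at 0.0723 and 0.186 CPM in mock and H2O2 H and 0.685 and 1.41 CPM in mock and H2O2 Q. IFI44, a gene induced by type I interferon, measured 0.176 and 0.509 CPM in H and 0.652 and 6.7 CPM in Q (2.99, SE 0.47, adjusted p = 0.0315). Its rise was 1.45 in mock and 3.48 in H2O2, and without the H2O2 Q library and the block 0 of the 32 genes passed.

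Drug-metabolising enzymes moved both ways. Cytochrome P450 enzymes gave 4 rises and 1 fall in 22 (median 0.76, or 0.50 in mock and 0.52 in H2O2), and 4 and 0 with upper-quartile scaling. CYP1A1, which oxidises aromatic hydrocarbons, measured 10.1 and 28.7 CPM in mock and H2O2 H and 32.7 and 55.4 CPM in mock and H2O2 Q (1.32, SE 0.21, adjusted p = 0.032), and CYP1B1 rose by 1.37 (SE 0.20, adjusted p = 0.0299). The neighbours CYP3A5 and CYP3A7 rose by 1.27 (SE 0.21) and 1.40 (SE 0.23), both with adjusted p = 0.0329, and their sequences are alike enough to share reads. Conjugating enzymes split 3 to 2 in 21. BAAT, which conjugates bile acids, rose by 2.48 (SE 0.35, adjusted p = 0.0289) and UGT2A3, a glucuronosyltransferase, by 1.54 (SE 0.21, adjusted p = 0.027), while GSTA1, a glutathione transferase, fell from 497 and 546 CPM in H to 165 and 251 CPM in Q (−1.36, SE 0.17, adjusted p = 0.0239). Hepatic transporters gave 2 rises and 3 falls in 22, with SLC13A5, the citrate transporter, at −1.74 (SE 0.20, adjusted p = 0.0228) and the glycerol channel AQP9 at 1.57 (SE 0.30, adjusted p = 0.0427).

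Secreted plasma proteins gave 0 rises and 7 falls in 24, with 22 of 24 differences negative (median −1.04, or −1.29 in mock and −0.63 in H2O2), and 2 falls with upper-quartile scaling. F2, prothrombin, measured 318 and 355 CPM in mock and H2O2 H and 76.2 and 163 CPM in mock and H2O2 Q (−1.59, SE 0.24, adjusted p = 0.0306). RBP4, the plasma carrier of retinol, measured 548 and 610 CPM in H and 264 and 361 CPM in Q (−0.90, SE 0.15, adjusted p = 0.0329). For F2 and RBP4 both Q libraries were below both H libraries. APOH, beta-2-glycoprotein I, measured 23.2 and 56 CPM in H and 8.51 and 24.1 CPM in Q (−1.33, SE 0.15, adjusted p = 0.0228). Its H2O2 Q value lay just above its mock H value, so the letters separated within a treatment and not across both.

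The 15 mRNA genes with the largest drops included more liver proteins. AHSG, fetuin A, an inhibitor of calcification, measured 398 and 734 CPM in mock and H2O2 H and 54.9 and 310 CPM in mock and H2O2 Q (−2.05, SE 0.37, adjusted p = 0.0392). SERPINF2, the plasmin inhibitor, measured 177 and 182 CPM in H and 28 and 78.9 CPM in Q (−1.93, SE 0.34, adjusted p = 0.0368). AGXT, which removes glyoxylate in peroxisomes, fell by 1.98 on the log2 scale (SE 0.21, adjusted p = 0.0218), and SLC38A3, a glutamine transporter, from 31.6 and 54.4 CPM in H to 6.35 and 8.88 CPM in Q (−2.47, SE 0.17, adjusted p = 0.0116). The list also held FETUB, LDHD, DMBT1, GUCY2D, EMX1 and C2orf54, from −1.93 for FETUB to −2.38 for LDHD.

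SPDEF, an epithelial transcription factor, and its chromosome 6 neighbour PACSIN1 had another pattern among these 15. SPDEF measured 26 and 0.832 CPM in mock and H2O2 H and 3.09 and 0.251 CPM in mock and H2O2 Q (−2.56, SE 0.35, adjusted p = 0.027). PACSIN1, an endocytic adaptor, measured 43.3 and 1.36 CPM in H and 4.67 and 0.46 CPM in Q (−2.52, SE 0.40, adjusted p = 0.032). Both were lower in H2O2 than in mock within each letter, and the letters overlapped. Within each treatment Q was lower (−3.03 in mock and −1.41 in H2O2 for SPDEF, −3.18 and −1.38 for PACSIN1).

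Acute phase proteins gave 0 rises and 4 falls in 15 (median −0.84), which were HP, HPR, LBP and FGL1, and 2 falls with upper-quartile scaling. LBP, which binds bacterial lipopolysaccharide, fell by 1.71 on the log2 scale (SE 0.23, adjusted p = 0.0267). Complement and coagulation factors gave 0 rises and 9 falls in 29 (median −0.47), and 4 falls with upper-quartile scaling. C8B of the membrane attack complex measured 5.7 and 16 CPM in mock and H2O2 H and 1.73 and 6.5 CPM in mock and H2O2 Q (−1.5, SE 0.21, adjusted p = 0.0274), so that H2O2 Q lay above mock H. F10, factor X, fell by 0.96 (SE 0.15, adjusted p = 0.0312) and SERPINC1, antithrombin, by 0.92 (SE 0.14, adjusted p = 0.032), with both Q libraries below both H libraries for F10 and for SERPINC1.

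**Figure D3:**
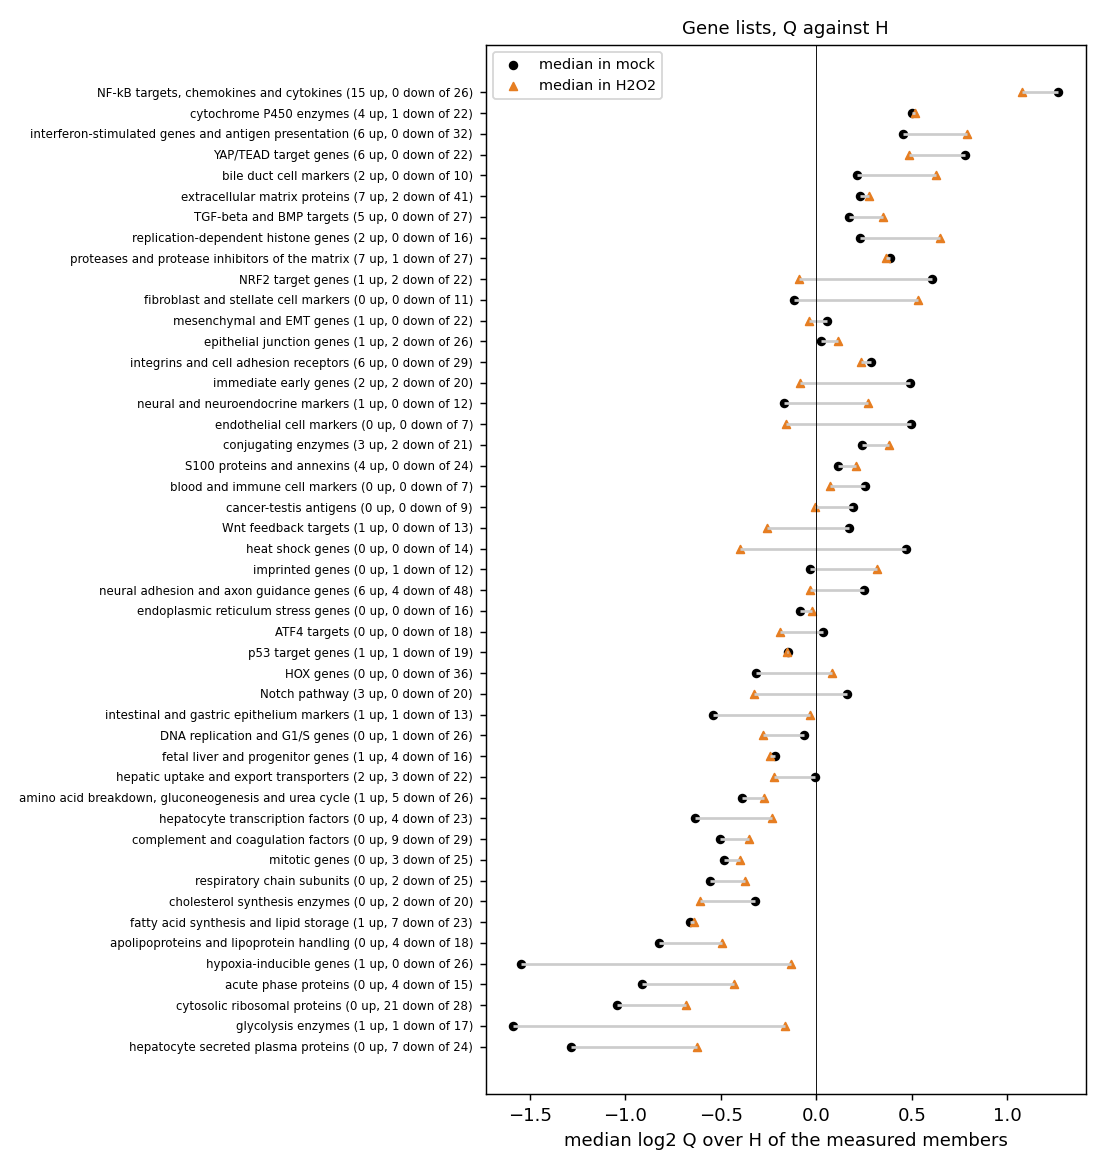
Median log2 of Q over H of the measured members of each gene list, between the mock libraries and between the H2O2 libraries, with a line at 0 for equal levels. NF-kB targets and chemokines lie farthest to the right (1.27 in mock and 1.08 in H2O2), plasma proteins lie to the left in both treatments, and hypoxia-inducible and glycolysis genes lie far left in mock and near 0 in H2O2.

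The counts within lists also changed in the fits that dropped a Q library together with the block. Without the mock Q library 37 of the 47 lists held no call, and without the H2O2 Q library 17, against 8 with all libraries and the block and 45 with all libraries and no block. In that order, 5 and 5 NF-kB genes rose, 3 and 3 YAP/TEAD targets, 2 and 5 matrix proteases and inhibitors, 2 and 4 matrix proteins, 0 and 4 integrins and adhesion receptors, and 0 and 0 cytochrome P450 enzymes. Of the lists with falls, plasma proteins held 0 and 14, complement and coagulation factors 0 and 5, and acute phase proteins 1 and 4. The medians of these lists kept their sign in both cases.

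Apolipoproteins and lipoprotein handling gave 0 rises and 4 falls in 18 (median −0.66), and 2 falls with upper-quartile scaling. PLTP, the phospholipid transfer protein, measured 127 and 154 CPM in mock and H2O2 H and 57.6 and 78.7 CPM in mock and H2O2 Q and fell by 1.05 (SE 0.13, adjusted p = 0.0246) and MTTP, which loads lipid onto APOB, by 0.77 (SE 0.13, adjusted p = 0.0352). Fatty acid synthesis and lipid storage genes gave 1 rise and 7 falls in 23 (median −0.62). SCD, the desaturase that makes oleate, measured 1857 and 1800 CPM in H and 761 and 794 CPM in Q (−1.23, SE 0.14, adjusted p = 0.0228). The desaturases FADS1 (−1.06, SE 0.14, adjusted p = 0.0246) and FADS2 (−0.96, SE 0.14, adjusted p = 0.0289) and the triglyceride enzyme DGAT1 (−1.44, SE 0.16, adjusted p = 0.0218) fell with it. All 20 cholesterol synthesis genes had negative differences (median −0.49), and 2 passed the test, the kinase MVK (−0.77, SE 0.14, adjusted p = 0.0383) and the SREBP regulator INSIG1 (−1.12, SE 0.18, adjusted p = 0.0329).

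Hepatocyte transcription factors gave 0 rises and 4 falls in 23 (median −0.42), and 0 falls with upper-quartile scaling. CEBPA, a C/EBP factor of liver and adipose differentiation, measured 476 and 263 CPM in mock and H2O2 H and 145 and 140 CPM in mock and H2O2 Q (−1.31, SE 0.21, adjusted p = 0.0329). The bile acid receptor NR1H4 (−0.87, SE 0.17, adjusted p = 0.0433) and the pioneer factors FOXA1 (−0.75, SE 0.14, adjusted p = 0.043) and FOXA2 (−0.83, SE 0.14, adjusted p = 0.0352) fell less. Amino acid breakdown, gluconeogenesis and urea cycle genes gave 1 rise and 5 falls in 26 (median −0.33). HAL, which breaks down histidine, measured 28.1 and 44.7 CPM in H and 6.89 and 17.3 CPM in Q and fell by 1.70 (SE 0.20, adjusted p = 0.0234). TDO2, which opens the tryptophan ring, rose by 1.32 (SE 0.20, adjusted p = 0.0314).

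Fetal liver and progenitor genes gave 1 rise and 4 falls in 16 (median −0.27), and 1 fall with upper-quartile scaling. AFP, the fetal counterpart of albumin, measured 2911 and 3313 CPM in mock and H2O2 H and 708 and 1565 CPM in mock and H2O2 Q (−1.56, SE 0.25, adjusted p = 0.032). HMGA2, an architectural chromatin protein of embryonic cells, measured 107 and 157 CPM in H and 37.8 and 63.8 CPM in Q (−1.40, SE 0.14, adjusted p = 0.0211). GPC3, the heparan sulphate proteoglycan glypican 3, fell by 1.04 (SE 0.18, adjusted p = 0.0352), while PROM1, the surface protein CD133, rose by 1.14 (SE 0.15, adjusted p = 0.0246). The imprinted growth factor gene IGF2 fell from 1148 and 1064 CPM in H to 316 and 588 CPM in Q (−1.36, SE 0.25, adjusted p = 0.0403), and was the only one of 12 imprinted genes to pass.

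Cytosolic ribosomal proteins held the highest share of falls of the 47 lists, with 0 rises and 21 falls in 28 and all 28 differences negative (median −0.86). With upper-quartile scaling 3 passed, without the mock Q library and the block 0 passed, and all 28 stayed negative in both. RPL3 measured 2314 and 2188 CPM in mock and H2O2 H and 842 and 1071 CPM in mock and H2O2 Q (−1.24, SE 0.17, adjusted p = 0.0256). RPL7 fell by 1.0 (SE 0.14, adjusted p = 0.0289), RPL10 by 1.02 (SE 0.15, adjusted p = 0.0312) and RPS24 by 0.94 (SE 0.15, adjusted p = 0.0314). Ribosomal protein genes have many processed pseudogenes, so the sharing of their reads is uncertain.

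Many small nucleolar RNA rows were lower. Of 276 such rows 61 fell and 0 rose, while of 386 microRNA rows 2 rose and 3 fell, and over all 717 rows that are neither mRNA nor long intergenic RNA 9.34% passed, 8.93% as lower and 0.418% as higher. The rows of lowest p were U24, U43 and U73b (−1.19, SE 0.14, −1.28, SE 0.15, and −1.18, SE 0.14), which guide ribosomal RNA modification and lie in introns of ribosomal protein genes. U24 measured 145 and 143 CPM in mock and H2O2 H and 59.7 and 66.8 CPM in mock and H2O2 Q. Its host RPL7A, chosen for that reason, measured 2438 and 2209 CPM in H and 983 and 1083 CPM in Q (−1.17, SE 0.15, adjusted p = 0.0246). Reads of an intronic RNA and its host cannot be told apart in these rows.

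Transcript length moved with the letter over all genes. From the shortest to the longest of 5 equal bins of mRNA genes, the median Q over H went from −0.163 to 0.153 in mock and from −0.137 to 0.0735 in H2O2. The share of genes that fell went from 6.17% to 1.77% and the share that rose from 2.44% to 4.02%. The genes that rose had a median transcript length of 3404 bases, those that fell 2124 and all tested mRNA genes 2907, and the GC content was 49.1%, 53.5% and 49.97%. Ribosomal protein transcripts are among the short ones, and the part of length in the results was not tested.

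**Figure D4:**
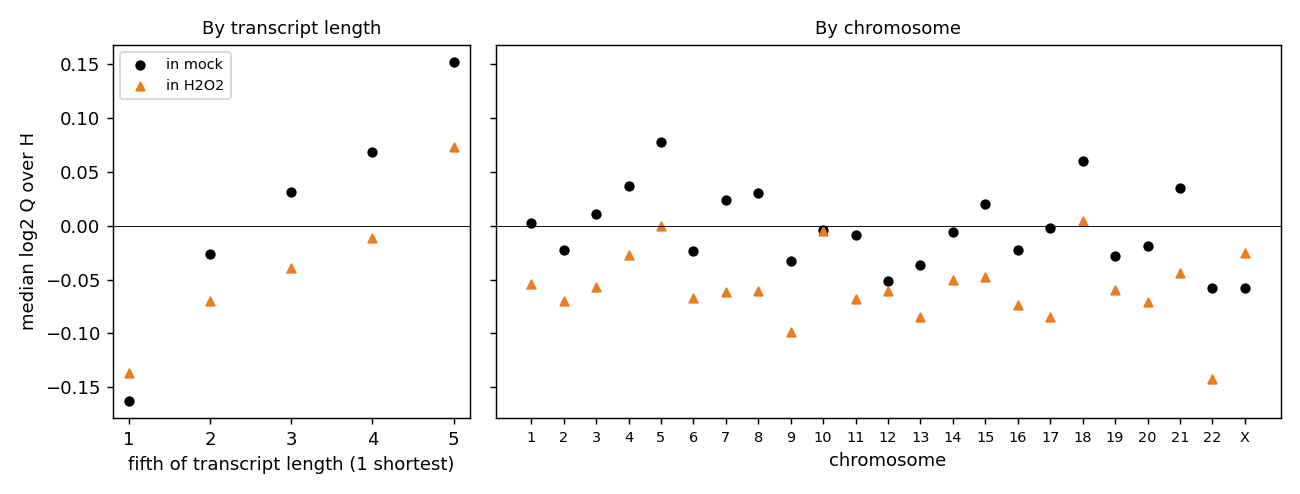
Median log2 of Q over H by bin of transcript length (left, bin 1 the shortest) and by chromosome (right), with black circles for the mock libraries and orange triangles for the H2O2 libraries. Medians go up with length in both treatments, from −0.163 to 0.153 in mock, and no chromosome departs by more than 0.3 from all genes.

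Mitotic genes and respiratory chain subunits had negative differences. Of these lists 12% and 8% of genes fell, against 3.41% of all mRNA genes. All 25 mitotic genes had negative differences (median −0.48), with 3 falls, and 0 with upper-quartile scaling. In the fits with no block, 22 of the 25 were negative without the mock Q library and 20 without the H2O2 H library. TOP2A, the topoisomerase of mitotic chromosomes, measured 532 and 819 CPM in mock and H2O2 H and 296 and 526 CPM in mock and H2O2 Q (−0.74, SE 0.14, adjusted p = 0.043), and here the H2O2 Q value was close to the mock H value. CENPA, the centromeric histone, fell by 0.87 (SE 0.16, adjusted p = 0.04) and KIF20A, a kinesin of cytokinesis, by 0.73 (SE 0.13, adjusted p = 0.0391). DNA replication genes gave 1 fall in 26 (PRIM1, −0.68, SE 0.14, adjusted p = 0.0472), a share near that of all mRNA genes. Their median was −0.19 and reached 0.17 without the H2O2 H library and the block, where 17 of the 26 were positive. All 25 respiratory chain subunits were negative (median −0.49) with 2 falls, CYC1 (−0.75, SE 0.13, adjusted p = 0.0369) and NDUFV1 (−0.77, SE 0.15, adjusted p = 0.0478).

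Hypoxia-inducible and glycolysis genes differed between the mock libraries far more than between the H2O2 libraries. The hypoxia list had a median of −1.55 in mock and −0.13 in H2O2 over 26 genes, and the 17 glycolysis genes −1.59 and −0.17. GAPDH measured 6527 CPM in mock H, 4351 in H2O2 H, 2123 in mock Q and 3051 in H2O2 Q (−1.07, SE 0.27, adjusted p = 0.077). The letter differences of VEGFA (−0.53, SE 0.14, adjusted p = 0.0875) and of DDIT4 (−1.11, SE 0.24, adjusted p = 0.0562), a stress and hypoxia gene, also missed the threshold. Glycolysis gave 1 fall, PFKL (−1.10, SE 0.21, adjusted p = 0.0421), and 1 rise, the low PFKP (2.28, SE 0.43, adjusted p = 0.043), and the hypoxia list 1 rise, the matrix cross-linking enzyme LOXL2 (1.27, SE 0.23, adjusted p = 0.04). The number of falls depended on the setting. With no filter on low counts 12 glycolysis and 12 hypoxia genes fell, and in the fits with no block 13 and 18 fell without the H2O2 H library and 6 and 6 without the H2O2 Q library. The difference between treatments was not tested, since each letter and treatment had 1 library.

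Stress response lists gave calls in both directions or none, beside 2.9% of mRNA genes that rose and 3.41% that fell. Heat shock, endoplasmic reticulum stress and ATF4 target lists had 0 calls in 14, 16 and 18 genes. Of 22 NRF2 targets AKR1C2 rose (0.92, SE 0.15, adjusted p = 0.0329), FTL, the ferritin light chain, fell (−0.79, SE 0.14, adjusted p = 0.039) and NQO1, a quinone reductase, fell (−0.72, SE 0.14, adjusted p = 0.0475), and AKR1C2 has near-identical paralogs. Of 19 p53 targets TP53INP1 rose (1.20, SE 0.14, adjusted p = 0.023) and CCNG1 fell (−1.05, SE 0.13, adjusted p = 0.0243). Immediate early genes split 2 to 2 in 20, with KLF4 (1.72, SE 0.16, adjusted p = 0.0204) and FOSL1 (1.77, SE 0.29, adjusted p = 0.0332) higher and EGR1 (−1.54, SE 0.19, adjusted p = 0.0246) and FOS (−1.17, SE 0.24, adjusted p = 0.0491) lower. EGR1, a transcription factor induced within minutes by growth factors, measured 49.3 and 106 CPM in mock and H2O2 H and 21.5 and 28.7 CPM in mock and H2O2 Q.

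Epithelial and mesenchymal genes gave 1 rise each, beside 2.9% of mRNA genes that rose and 3.41% that fell. The medians of both lists turned negative without the mock Q library and the block. Epithelial junction genes gave 1 rise and 2 falls in 26 (median 0.24, or 0.03 in mock and 0.11 in H2O2). The tight junction genes TJP3 (−1.14, SE 0.13, adjusted p = 0.0228) and CLDN3 (−1.12, SE 0.22, adjusted p = 0.0476) were lower. SPINT1, a membrane protease inhibitor, rose (0.80, SE 0.15, adjusted p = 0.043), but it measured 44 and 7.61 CPM in mock and H2O2 H and 68.4 and 15 CPM in mock and H2O2 Q. The letters overlapped across treatments, and Q was higher within each (0.64 in mock and 0.97 in H2O2). Mesenchymal genes gave 1 rise in 22 (median 0.27, or 0.06 in mock and −0.04 in H2O2). The gene that rose was the repressor ZEB2, at 0.475 and 0.568 CPM in H and 2.57 and 4.31 CPM in Q (2.68, SE 0.27, adjusted p = 0.0211). VIM, vimentin, measured 347 and 229 CPM in H and 509 and 343 CPM in Q (0.57, SE 0.13, adjusted p = 0.0662).

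Some genes of other epithelia and signalling routes also passed. Of 10 bile duct markers 2 rose, SPP1, osteopontin, from 103 and 126 CPM in mock and H2O2 H to 562 and 477 CPM in mock and H2O2 Q (2.19, SE 0.18, adjusted p = 0.0131), and KRT7, a keratin of ducts (1.81, SE 0.35, adjusted p = 0.0441). Of 13 intestinal and gastric markers the mucin MUC13 rose (1.24, SE 0.17, adjusted p = 0.0267) and the fatty acid binder FABP1, also a hepatocyte protein, fell (−1.55, SE 0.29, adjusted p = 0.0416). Notch pathway genes gave 3 rises and 0 falls in 20, and 1 rise with upper-quartile scaling, while 12 of the 20 differences were negative (median −0.13). The rises were the ligand JAG1 at 51.5 and 104 CPM in H and 264 and 208 CPM in Q (1.68, SE 0.31, adjusted p = 0.0414), the receptor NOTCH2 (0.71, SE 0.13, adjusted p = 0.0399) and the glycosyltransferase MFNG (0.97, SE 0.19, adjusted p = 0.043). Of 13 Wnt feedback targets LGR5 rose (1.23, SE 0.20, adjusted p = 0.0336). Of 16 measured histone genes 2 rose, and of 36 HOX genes and 9 cancer-testis genes 0 passed.

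A single mRNA gene met the rule for near absence in 1 letter, with at most 10 reads in each library of one letter and at least 100 in each of the other. TUSC3 on chromosome 8, a subunit of the oligosaccharyltransferase complex, had 3 reads in each H library and 261 and 139 reads in mock and H2O2 Q (5.69, SE 0.43, adjusted p = 0.0116). The ratio of scaled reads was 69.5 in mock (exact 95% interval 23.5 to 339) and 39.6 in H2O2 (13.3 to 194), which covers counting error only. The counts of each library summed to more than its mapped mates, so these intervals may be too narrow even for counting error. No gene was near absent in Q under the same rule. Long intergenic RNA models gave 94 rises (0.896%) and 88 falls (0.839%) in 10494.

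Chromosomes had similar median differences, while their shares of genes that rose or fell varied. Over chromosomes the median difference of mRNA genes with at least 100 reads in 2 libraries lay between −0.104 on chromosome 22 and 0.0434 on chromosome 5. Of these genes 3.19% rose, from 1.28% on chromosome 19 to 5.59% on chromosome 4. The share that fell was 4.06%, from 2.13% on chromosome 7 to 5.41% on chromosome 22. Whether chromosomes differ in these shares was not tested. In the gene order of GRCh38.p14, 167 of 1038 placed genes that passed stood next to another that moved the same way, in 76 runs, of which 11 held 3 or more genes and 9 of those 11 were higher in Q. The chemokine, OAS, CYP3A and KLRC clusters, which hold paralogs, were among these 11. Some runs hold a gene and a joint model that carries its name, such as RPS10 with RPS10-NUDT3 and CYP3A7 with CYP3A7-CYP3AP1, whose reads may be shared. The order held 16388 mRNA genes, and how many runs their order alone would give was not tested.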

How the data were processed

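RNA of 4 Huh7 libraries was sequenced. The submitters' processing notes name TopHat 1.3.3 and Bowtie 0.12.2, CASAVA and Cuffdiff, and builds hg19, GRCh37 and mm8, without roles. The sources used here do not say how reads were counted or whether by strand. Per the file headers, each table holds, as deposited, the read count (Read #) and FPKM of 58146 transcript models. The deposited alignment summaries gave read pairs and mapped mates, in other units. For each gene the row with the highest total count was used. These counts summed to between 103851326 and 113082498 per library, above the mapped mates, so counting precision is overstated.

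Rows with at least 10 reads in at least 2 libraries were tested with edgeR 4.0.16 (R 4.3.3; TMM; two-sided quasi-likelihood test of letter with treatment as a block; 1 residual degree of freedom, prior degrees of freedom 5.28; Benjamini-Hochberg over all rows at 5%). The letter and treatment labels share the replicate number of the treatment, which is the block. The SE is the log2 difference over the root of F. The method was tested on simulated data with the same spread for all genes and no effect of treatment. That test therefore does not cover these features of the real libraries. Alternatives used DESeq2 1.42.0, limma 3.58.1 on log2(FPKM + 1), other filters and scalings, and each library left out with the treatment term dropped.

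The comparison, its 5 genes and the 47 gene lists were chosen with earlier results of these data known. Named genes are from the 15 largest in each direction, up to 4 of lowest p per list, the 5 given genes, genes near 0 in 1 letter, and the 3 non-mRNA rows of lowest p in each direction; exceptions are stated, and some genes of this set are not reported here. Transcript lengths came from GENCODE v29, matched for 95.8% of mRNA genes, and 150-base promoter windows from RefSeq. A window was found for 77.3% of the genes that fell and 80.5% of those that rose. Motif shares were counted only for the genes that rose, so they have no counterpart among the genes that fell. FPKM was used only in 1 alternative.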

Additional observations from a re-analysis of the deposited data

Results flagged for a closer look

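The 14 heat shock genes had a median log2 difference of Q over H of 0.468 between the mock libraries and −0.400 between the H2O2 libraries, the only gene list whose medians lay at least 0.3 on opposite sides of 0. Heat shock proteins are chaperones that refold damaged proteins. The difference between treatments was not tested, since each letter and treatment had 1 library. None of the 14 genes passed the test of letter (edgeR, adjusted p = 0.0611 for CRYAB, 0.0898 for HSPD1, 0.113 for HSPE1 and 0.123 for DNAJA1).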

How the results depend on the processing

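Without the treatment block 3 genes were higher in Q and 0 lower (edgeR; at an unadjusted p under 0.05, 1916 higher and 2145 lower), and the pairing by treatment was visible in the H2O2-minus-mock changes of the letters, with a correlation of 0.408 over 27702 genes, which are not independent. Against 575 higher and 715 lower, the counts were 1031 and 1771 with the DESeq2 Wald test, 1491 and 2103 with no filter on low counts, and 104 and 11 with limma on log2(FPKM + 1), which moved the median of all genes by 0.12. With upper-quartile scaling they were 413 and 270. Leaving out 1 library, which also drops the block, gave 57 to 1214 higher and 4 to 1102 lower, lowest without mock Q for both. DESeq2 size factors, a filter of 100 reads and summed rows kept both counts within 1.5 times. Of the genes named, 98 lost their call with limma and 37 with upper-quartile scaling. With the block dropped, 136 lost it with all libraries, 110 without mock Q, 60 without H2O2 Q, 32 without H2O2 H and 11 without mock H. In these fits with no treatment term the sign reversed for SPDEF (1.0) and PACSIN1 (0.91) without mock H (lowest −5.74 and −5.60 without mock Q), and for SPINT1 without mock Q (−0.79) and without H2O2 H (−0.08; highest 2.45 without mock H). These genes differed by −4.39, −4.24 and −2.36 between H2O2 and mock, so the unbalanced libraries carry treatment into the letter, and their sign is the same within both treatments. Of the 47 list medians, 26 kept their sign under all alternatives and within each treatment, and 21 did not. With 1 library for each letter and treatment, the test with the block rests on 1 residual degree of freedom, and the cause of the other differences between settings was not tested.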
